A study of Homo sapiens with 9 samples.

Results

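MECOM, MLLT3, KIF16B and STRBP are the 4 genes described here, out of 20033 protein-coding genes on the chromosomes used. They were chosen by measured values of these data, because each had 4 called regions near a gene end in hypoxic T47D cells with ZHX2 knocked down that no region of hypoxic control cells touched. T47D is a luminal human breast cancer cell line that carries the oestrogen receptor, and accessible chromatin was mapped in it by ATAC-seq, in which a transposase cuts open DNA. Per the labels, 9 samples formed 3 groups of 3: hypoxia with a short hairpin RNA against ZHX2 (shZHX2), hypoxia with a control hairpin (shCtrl), and normoxia with shCtrl. All cells had been infected with lentivirus and selected with hygromycin or puromycin. The labels state neither the oxygen level, the length of hypoxia, the number of hairpins against ZHX2 nor whether the 3 samples of a group came from separate cultures. No normoxia group with shZHX2 was analysed here.

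Each group was represented by 1 list of called regions, so the differences below have no replicate check and were not tested. The hypoxia shZHX2 list held 62779 regions, the hypoxia shCtrl list 77451 and the normoxia shCtrl list 90962. Sequencing depth is unknown. The fold enrichment and −log10 p of a region are the values of the authors' peak caller and serve only to describe and rank regions within a list. A region is called "gained" when it is in the shZHX2 list and no hypoxia shCtrl region touches it, and "lost" when it is in the hypoxia shCtrl list and no shZHX2 region touches it. The luminal marker ESR1, which encodes the oestrogen receptor, had 14, 13 and 25 regions in the hypoxia shZHX2, hypoxia shCtrl and normoxia shCtrl lists. None lay within 1 kb of an end of ESR1, and starts inside the gene do not count as ends. Of 13 luminal markers, ESR1 among them, 11, 11 and 12 had a region within 1 kb of a gene end in these lists. Of 6 basal and mesenchymal markers it was 2, 3 and 3, of 4 blood markers 1, 2 and 3, and of 4 stroma and endothelium markers 1, 2 and 2. Of all 20033 protein-coding genes it was 14032, 14482 and 14856, so a called gene end alone is common. Whether ZHX2 RNA was lowered cannot be read from accessibility: ZHX2 had 12, 16 and 17 regions in the same order of lists, with a gene end called in each. In these bulk samples, fewer cells with an open site and less opening per cell cannot be told apart.

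The 4 genes have different roles. MECOM encodes a zinc finger transcription factor of the PRDM family, known as an oncogene of myeloid leukaemia, and it gives a long form with a PR domain and a shorter form, EVI1, from separate starts. MLLT3 (AF9) reads acylated histone H3 through its YEATS domain, brings the super elongation complex and the methyltransferase DOT1L to chromatin, and is a fusion partner of KMT2A in leukaemia. KIF16B is a kinesin-3 motor that binds phosphoinositides and carries early endosomes along microtubules. STRBP binds double-stranded RNA and was described in mouse spermatids. An accessible region away from a start is often an enhancer or another regulatory element, and one over a start usually marks a promoter in use or ready for use.

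Each gene had at least 1 annotated start covered by a region in all 3 lists, and these 4 start windows are shown; the other annotated starts of MECOM were not touched. A gene end was called, within 1 kb, at 14032 of the 20033 genes with shZHX2, 14482 in hypoxia with shCtrl and 14856 in normoxia, so such a region is common. The windows are RefSeq sequences of GRCh38.p14 that run from 250 bases before to 50 bases after an annotated start, and all 4 genes lie on the minus strand. Capitals mark, on either strand, the GC box (GGGCGG), the NF-Y motif (CCAAT), the core of the hypoxia response element (ACGTG) and a forkhead motif (TGTTTAC).
MECOM, internal start, chr3:169147422-169147721: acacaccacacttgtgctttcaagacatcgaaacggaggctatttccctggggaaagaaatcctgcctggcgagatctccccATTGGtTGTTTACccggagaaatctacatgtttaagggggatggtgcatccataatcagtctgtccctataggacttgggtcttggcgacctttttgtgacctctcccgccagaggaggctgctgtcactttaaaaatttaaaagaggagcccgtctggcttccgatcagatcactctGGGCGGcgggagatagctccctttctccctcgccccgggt
MLLT3, chr9:20622450-20622749: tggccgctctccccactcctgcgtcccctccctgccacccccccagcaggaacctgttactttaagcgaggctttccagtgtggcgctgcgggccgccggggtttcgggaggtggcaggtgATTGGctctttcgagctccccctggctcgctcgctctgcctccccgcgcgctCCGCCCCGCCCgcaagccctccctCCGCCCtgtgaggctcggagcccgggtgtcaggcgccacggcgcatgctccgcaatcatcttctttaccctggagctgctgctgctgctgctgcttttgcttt
KIF16B, chr20:16573399-16573698: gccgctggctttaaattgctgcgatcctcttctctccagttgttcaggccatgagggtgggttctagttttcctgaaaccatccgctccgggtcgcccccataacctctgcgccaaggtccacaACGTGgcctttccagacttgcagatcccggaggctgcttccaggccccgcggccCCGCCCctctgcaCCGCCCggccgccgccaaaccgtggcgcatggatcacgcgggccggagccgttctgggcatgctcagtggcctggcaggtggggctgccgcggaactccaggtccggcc
STRBP, chr9:123268537-123268836: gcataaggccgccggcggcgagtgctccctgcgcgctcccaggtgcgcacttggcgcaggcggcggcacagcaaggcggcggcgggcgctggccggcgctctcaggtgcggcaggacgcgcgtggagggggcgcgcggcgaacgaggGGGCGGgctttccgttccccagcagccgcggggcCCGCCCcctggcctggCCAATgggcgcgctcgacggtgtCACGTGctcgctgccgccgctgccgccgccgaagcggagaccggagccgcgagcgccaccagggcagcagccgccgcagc

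The GC box was in each of these 4 windows, with 1 match in MECOM, 3 in MLLT3, 2 in KIF16B and 2 in STRBP. It is in 56.3% of 22198 such windows of protein-coding genes, so its presence is common. CCAAT was in the MECOM, MLLT3 and STRBP windows and in 34.7% of all windows. ACGTG was in the KIF16B window and, as part of the E-box CACGTG, in the STRBP window, while ACGTG was in 5116 of the 22198 windows and CACGTG in 8.34%. The MECOM window alone of the 4 held TGTTTAC, found in 2.85% of all windows. None of the 4 held AP-1 (TGANTCA), the cAMP response element, the ETS motif CCGGAA, the GATA motif AGATAA, the NRF1 motif or the oestrogen response element. Their GC content was 52.3% in MECOM, 68.0% in MLLT3, 66.3% in KIF16B and 79.0% in STRBP, beside a median of 62.3% over all windows.

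Regions were counted at a gene when they lay in its span, or within 50 kb of an end with that gene the nearest. On this count the 4 genes held 55 regions in the shZHX2 list, 47 in the hypoxia shCtrl list and 66 in the normoxia shCtrl list. Of the 55 shZHX2 regions, 20 were gained (36.4%), where 7.11% of all shZHX2 regions were. That share was fixed by how the genes were chosen. Of the 47 hypoxia shCtrl regions, 12 were lost (25.5%, exact binomial 95% interval 13.9 to 40.3), where 25.0% of all hypoxia shCtrl regions were. The interval covers counting error only. With lists cut to equal length, the 4 genes lost 1 region by −log10 p and 4 by fold. Over the whole list the lost shares were then 14.9% and 17.4%. How many regions of the 4 genes the cut hypoxia shCtrl list kept is not given, so counts and shares cannot be compared. Loss belongs to the same comparison that chose the genes.

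The count of 4 per gene came from regions assigned by nearest gene end, and counting the whole span raised it at MECOM and MLLT3. With the span included, MECOM had 7 gained regions, MLLT3 5, KIF16B 4 and STRBP 4. MECOM is 580 kb long, MLLT3 281 kb, KIF16B 301 kb and STRBP 159 kb. On the span count 52 protein-coding genes (0.260%) had at least 4 gained regions, and their median length was 541 kb, beside 24.1 kb over all genes. PDE4D had the most, 9, and MECOM had rank 5. Per 100 kb of span and flanks, gained regions numbered 1.03 at MECOM, 1.31 at MLLT3, 0.997 at KIF16B and 1.54 at STRBP.

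By nearest end, 6 genes (0.0300%) had at least 4 gained regions. TRPS1, a GATA-type repressor, had 5, and CPT1A, the carnitine palmitoyltransferase of fatty acid oxidation, also had 4; CPT1A was noticed after the values were seen. Just under the threshold, 23 genes had 3. Of those 23, 18 had more gained than lost regions, which follows in large part from picking genes by their gained regions. On the span count, 1201 of 18072 genes with a region in either hypoxia list had more gained than lost.

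**Figure D1:**
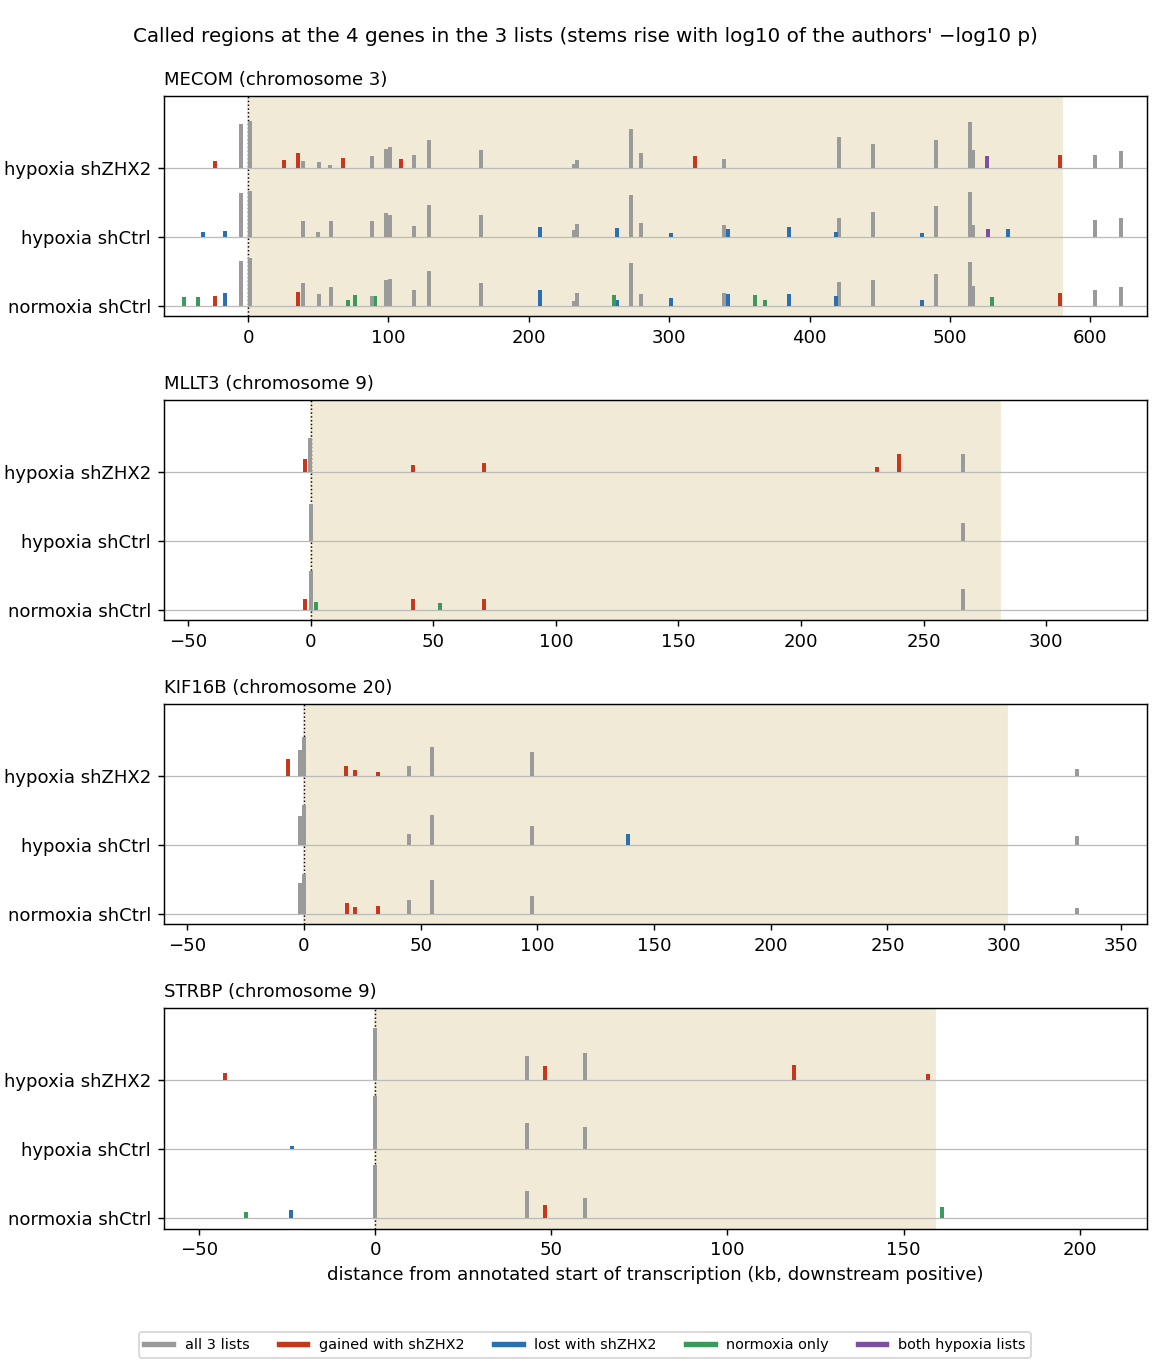
Called regions along the 4 genes in the hypoxia shZHX2, hypoxia shCtrl and normoxia shCtrl lists, against distance from the annotated start in kb (shaded: gene span, dotted line: start). Each stem is 1 region, taller for a higher −log10 p and coloured by the lists that share it; MLLT3 has 7, 2 and 7 regions, and the gained regions are short stems away from the start.

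MLLT3 had 7 regions in the shZHX2 list, 2 in the hypoxia shCtrl list and 7 in the normoxia shCtrl list. These covered 4.05, 1.51 and 2.84 kb. Its share of gained regions, 5 of 7 with shZHX2 (71.4%), was the highest of the 4 genes. Both hypoxia shCtrl regions touched a region of each other list, one over the start and the other 266 kb downstream, near the far end of the gene. The chromatin between them was without a called region in hypoxia with shCtrl.

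The strongest gained region of MLLT3 lay at 20382497 to 20383106 on chromosome 9, 240 kb downstream of the start. It was 610 bp wide, with a fold enrichment of 5.25 over local background and a −log10 p of 39.6, which is the 45.2 percentile of the shZHX2 list. The nearest hypoxia shCtrl region was 25.8 kb away, and no normoxia region touched it. A weaker gained region at 20391210 to 20391496, 231 kb from the start, had a −log10 p of 12.2 and was likewise in no shCtrl list. These 2 regions are the part of MLLT3 seen with shZHX2 alone.

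The other 3 gained regions of MLLT3 were also called in normoxia. The region at 20551824 to 20552137, 70.5 kb into the gene, had a −log10 p of 17.2 with shZHX2, and its normoxia region had 20.2. That at 20580780 to 20581009 had 14.2 with shZHX2 and 20.2 in normoxia. That at 20624743 to 20624942, 2.34 kb before the start, had 24.3 and 21.2, and its fold was only 2.21 and 2.03. Normoxia had 2 more regions of its own, 52.7 kb and 1.93 kb into the gene.

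The region over the start of MLLT3 was called in every list and was longest with shZHX2. It was 1860 bp wide there, 1139 bp in hypoxia with shCtrl and 1047 bp in normoxia. It reached 1125 bp upstream of the start with shZHX2, 363 bp in hypoxia with shCtrl and 371 bp in normoxia, and so covered the whole window printed above in each list. Its −log10 p was 164, 206 and 239 in the same order.

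KIF16B had 10 regions with shZHX2, 7 in hypoxia with shCtrl and 9 in normoxia. Of its 4 gained regions, 3 lay in the first part of the gene, 18.1, 21.7 and 31.8 kb from the start, and all 3 were also called in normoxia. The region at 16555239 to 16555538 on chromosome 20 had a −log10 p of 20.2 with shZHX2 and 20.8 in normoxia. That at 16541360 to 16542016 had 11.7 and 15.4, and that at 16551595 to 16551860, called in normoxia too, had 13.3 with shZHX2. The nearest hypoxia shCtrl region lay between 12.9 and 21.2 kb from them. Between the start region and a region 45.2 kb into the gene the hypoxia shCtrl list held none.

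The strongest gained region of KIF16B lay upstream, at 16580220 to 16580706, 7.01 kb before the start. It had a fold of 4.52 and a −log10 p of 34.9 (percentile 41.2), and no shCtrl region of hypoxia or normoxia touched it. Only protein-coding genes competed for regions here. When all RefSeq genes competed, this upstream region was not assigned to KIF16B, which then had 3 gained regions. KIF16B lost 1 region, at 16434192 to 16434414, 139 kb into the gene, with a −log10 p of 20.3 in hypoxia with shCtrl; normoxia did not have it. The other 6 regions were in all 3 lists. Among them the region 55.0 kb into the gene had the highest fold at this gene, 9.06 with shZHX2, 8.37 in hypoxia with shCtrl and 9.81 in normoxia. The start region had a −log10 p of 239, 278 and 264.

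STRBP had 7 regions with shZHX2, 4 in hypoxia with shCtrl and 7 in normoxia. Its start carried the region with the highest −log10 p of the 4 genes, 767 with shZHX2, 869 in hypoxia with shCtrl and 866 in normoxia. The fold there was 8.33, 8.15 and 8.05, below that of the KIF16B region 55.0 kb into its gene. Regions 43.0 and 59.6 kb into the gene were also in every list. Of the 4 gained regions, only that at 123220284 to 123220558 on chromosome 9, 48.2 kb from the start, was called in normoxia too, with a −log10 p of 29.0 with shZHX2 and 25.9 in normoxia.

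Far into STRBP, 119 kb from the start, a gained region at 123149137 to 123149442 had a fold of 4.51 and a −log10 p of 29.4, and the nearest hypoxia shCtrl region was 46.1 kb away. Upstream, 42.6 kb before the start, that at 123311079 to 123311278 had a −log10 p of 15.4. This upstream region touched another RefSeq gene, LOC105376265. When all RefSeq genes competed, it was not assigned to STRBP, which then had 3 gained regions. STRBP lost 1 region, 23.7 kb before the start, which had a −log10 p of 10.9 in hypoxia with shCtrl and 16.5 in normoxia. At 10.9 that region was barely past the lowest value of its list, 10.1.

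The last gained region of STRBP covered a microRNA gene. It ran from 123111541 to 123112105, 157 kb from the start of STRBP, with a −log10 p of 14.0 and a fold of 2.41, and no region of either shCtrl list touched it. MIR600 lies within it at 123111546 to 123111643, and the non-coding gene MIR600HG that hosts it had 1 region with shZHX2, 0 in hypoxia with shCtrl and 0 in normoxia. The mature sequence is given from RefSeq, with the seed (bases 2 to 8) in capitals, because MIR600 was the only microRNA gene under a gained region.
hsa-miR-600: aCUUACAGacaagagccuugcuc
The region was weak, at the 5.41 percentile of the shZHX2 list, and accessibility says nothing of whether the microRNA was made. MIR4473 and MIR4474, microRNA genes in MLLT3, had no region in any list.

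MECOM was the richest of the 4 genes in regions. It had 31 regions with shZHX2, 34 in hypoxia with shCtrl and 43 in normoxia, which covered 19.0, 19.2 and 28.2 kb. It gained 7 and lost 10 on the span count, and gained 4 and lost 3 by nearest gene end. At the rates of their strength deciles, its shZHX2 regions would have included 3.44 gained ones and its hypoxia shCtrl regions 13.2 lost ones. MECOM was chosen by its gained regions, and loss belongs to the same comparison. These differences thus describe the choice of the gene and are no support for a change. With every list cut to the length of the shortest by −log10 p, MECOM had 10 gained and 0 lost regions, and with lists cut by fold 11 and 3. The shortest is the shZHX2 list, so only the shCtrl lists were cut. Such a cut cannot lower the gained count or raise the lost count, so the direction of these moves was fixed in advance. With a −log10 p of at least 15 in the list asked about, the gained and lost counts were 6 and 5, and with an overlap of 50% both were 10. Which of the counts is larger thus depends on the assignment, the threshold and the length of the lists.

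The gained regions of MECOM were spread over the locus. The strongest by −log10 p, 28.8, lay at 169627902 to 169628154 on chromosome 3, 35.7 kb into the gene, and normoxia had it with 26.1. The region at 169085765 to 169086118, 578 kb from the start and just inside the far end, had 24.8 with shZHX2 and 25.1 in normoxia. The upstream region at 169686984 to 169687188, 23.4 kb before the start, had 14.2 and 18.2. These 3 were the gained regions of MECOM that normoxia shared. When all RefSeq genes competed, the upstream one was not assigned to MECOM, which then had 6 gained regions.

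The other 4 gained regions of MECOM were in neither shCtrl list. They lay 25.8, 67.3, 109 and 318 kb into the gene, with −log10 p values of 16.1, 18.5, 17.2 and 21.7. Their folds ran between 3.39 and 3.88. All 4 lay in the weaker 50% of the shZHX2 list.

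The lost regions of MECOM were weak as well. Their −log10 p in hypoxia with shCtrl ran between 11.3 and 19.0, with a median of 14.0, and 8 of the 10 were also called in normoxia, near the 78.1% of all lost regions. They included a region at 169455508 to 169455884 inside MECOM-AS1, a non-coding gene within the MECOM span, with 19.0 in hypoxia with shCtrl and 30.1 in normoxia. A region at 169278735 to 169278934 inside the non-coding gene LOC105374206 had 17.9 and 21.3. Neither non-coding gene had a region with shZHX2.

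The starts of MECOM differed from those of the other genes. The RefSeq window at the outer start was touched in no list: the nearest region, strong in every list with a −log10 p of 476 with shZHX2, 453 in hypoxia with shCtrl and 537 in normoxia, ended 245, 240 and 321 bp downstream of that start. The window at the internal start, printed above, was touched in every list, with a −log10 p of 38.4, 22.1 and 45.7. Another annotated window, at 169146490 to 169146789, was touched in none. A separate region close to the internal start, at 169149119 to 169149838 with shZHX2, had a fold of 8.82, 8.45 and 7.01 in the same order of lists, the highest at MECOM in both hypoxia lists.

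**Figure D2:**
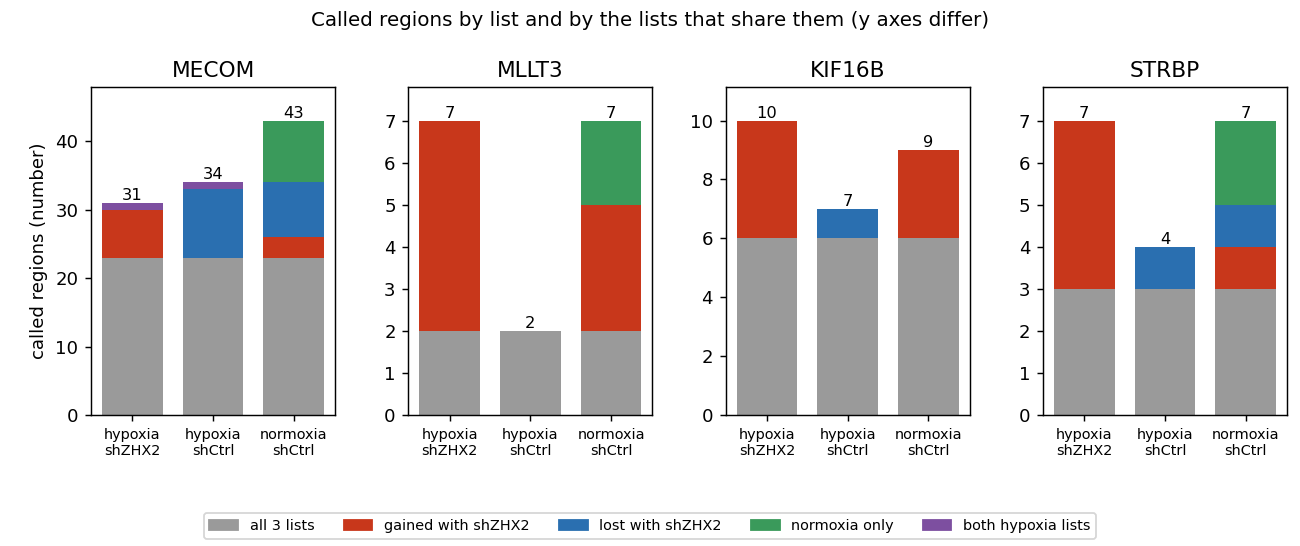
Number of called regions at each gene in the hypoxia shZHX2, hypoxia shCtrl and normoxia shCtrl lists, coloured by the lists that share them; y axes differ between genes. The bars reach 31, 34 and 43 at MECOM, 7, 2 and 7 at MLLT3, 10, 7 and 9 at KIF16B, and 7, 4 and 7 at STRBP.

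The gained regions had strength and width in common, which come from the lists that chose the genes and are given as a description. All 20 lay in the weaker 50% of the shZHX2 list by −log10 p, where 4417 of all 4466 gained regions lay. Their −log10 p ran between 11.7 and 39.6, with a median of 17.9, close to the median of 16.8 over all gained regions. The 35 shZHX2 regions at the same genes that touched a hypoxia shCtrl region had a median of 42.4. Their median widths were 281 bp for gained regions and 618 bp for the others. Gained regions at these genes were thus of the strength and width usual for gained regions anywhere, where all gained regions had a median width of 280 bp.

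**Figure D3:**
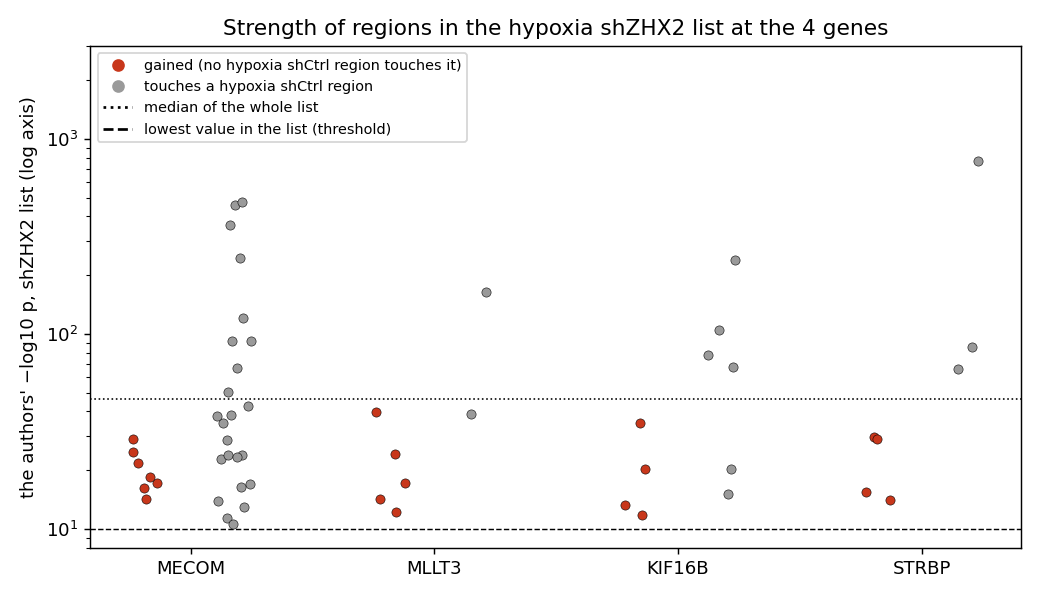
The authors' −log10 p, on a log axis, of every region at the 4 genes in the hypoxia shZHX2 list; each point is 1 region. All gained regions (red) lie below the list's median of 46.2 (dotted line), while regions that touch a hypoxia shCtrl region (grey) reach 767.

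Position is likewise given as a description. Of the 20 gained regions, 16 lay inside a gene span and 4 in a flank, and none touched a RefSeq start window of any gene. Spans make up most of the sequence counted at these genes. Within 10 kb of the start of the gene lay 2 gained regions, at MLLT3 and KIF16B, and within 50 kb lay 11. Of the 35 shZHX2 regions that touched a hypoxia shCtrl region, 6 lay within 10 kb and 9 within 50 kb. MECOM, the longest gene, held 24 of those 35. The genes were chosen by gained regions within 50 kb of a gene end, so this contrast of distances is partly built in. The distance from a gained region to the nearest hypoxia shCtrl region ran from 1881 bp to 69.6 kb, with a median of 12.8 kb. No gained region lay within 500 bp of one. Exons and introns could not be told apart, because the gene table gives only the ends of genes.

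Set beside regions of equal strength, the 4 genes had more gained regions at each of the 5 weakest deciles of the shZHX2 list. In the weakest decile 7 of their 12 regions were gained, where 29.8% of all regions were, and in the fourth decile 3 of 4, where 5.97% were. At the rates of their deciles the 55 regions would have included 6.29 gained ones: 3.44 at MECOM, 0.968 at MLLT3, 1.17 at KIF16B and 0.716 at STRBP. The excess describes the choice of the genes and is no support for a change. Above the fifth decile, the genes had 17 regions and none was gained. Over the whole list the rate there was also low, 0.653% in the sixth decile and at most 0.0637% in each stronger one.

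**Figure D4:**
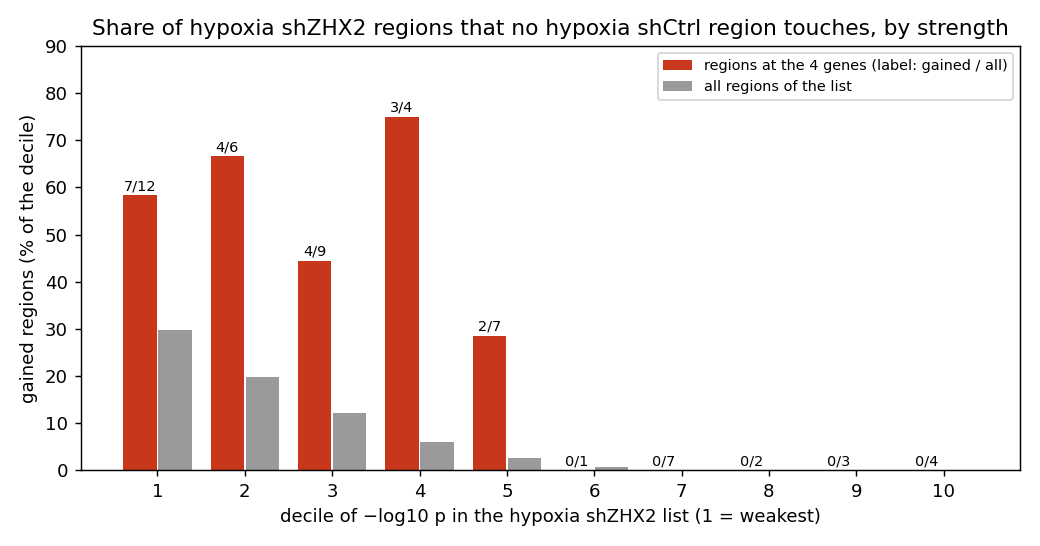
Share of hypoxia shZHX2 regions that no hypoxia shCtrl region touches, in percent of each strength decile (1 is the weakest), at the 4 genes (red, with gained over all regions) and over the whole list (grey). Gained regions fall in the 5 weakest deciles, where the list's own rate falls to 2.63% in the fifth decile.

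Normoxia was not used to choose the genes, but it was compared with the same hypoxia shCtrl list, which both comparisons share. Of the 20 gained regions, 10 were also called in normoxia (exact 95% interval of the share 27.2% to 72.8%): 3 of 7 at MECOM, 3 of 5 at MLLT3, 3 of 4 at KIF16B and 1 of 4 at STRBP. Over all gained regions the share was 55.1%, so the 4 genes were close to the whole list. With every list cut to equal length by −log10 p the count was 3 of 24. That cut removes the weakest normoxia regions. The 10 normoxia regions at the 4 genes that touched only an shZHX2 region lay between percentiles 10.6 and 34.9 of their list. The share over all gained regions is not given for cut lists, so the fall is not a result about these genes.

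Hypoxia was then set against normoxia in shCtrl cells. Of 47 hypoxia shCtrl regions, 4 were not called in normoxia (8.51%, 2.37 to 20.4), where 6.44% of the whole list were; 3 were at MECOM and 1 at KIF16B. Of 66 normoxia regions at the 4 genes, 23 were not called in hypoxia (34.8%, 23.5 to 47.6), where 20.6% of all normoxia regions were. At the rates of their strength deciles 19.4 would not have been, which is near the count. By gene the counts and these rates were 12 and 12.3 at MECOM, 5 and 2.53 at MLLT3, 3 and 2.61 at KIF16B, and 3 and 1.97 at STRBP. With lists of equal length by −log10 p, 5 normoxia regions at the 4 genes were not called in hypoxia, so this count depends on the lengths of the lists.

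The shZHX2 and normoxia lists were also compared directly. Of the 55 shZHX2 regions, 11 were not touched in normoxia, where 4.39% of the whole list were not: 5 at MECOM, 2 at MLLT3, 1 at KIF16B and 3 at STRBP. Of these 11, 10 were gained regions, so the count is tied to the choice of the genes. Of the 66 normoxia regions, 22 were not touched with shZHX2, near the 34.5% of the whole normoxia list, and of these 17 were at MECOM, 2 at MLLT3 and 3 at STRBP. At KIF16B every normoxia region touched an shZHX2 region.

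Relatives of the 4 genes were counted in the same way. Of 57 related genes, 13 had a gained region (22.8%) and 22 a lost one (38.6%), where 13.3% and 38.8% of all protein-coding genes did. The most gained at any relative was 2. None of them reached 4.

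By family, 1 of 14 PRDM genes had gained regions and 6 had lost ones. PRDM6 gained 2, PRDM16, a regulator of brown fat, lost 9 and had 7 regions with shZHX2 against 16 in hypoxia with shCtrl, PRDM11 lost 5 and PRDM15 lost 3. Of 18 partners of MLLT3 in the super elongation and DOT1L complexes, 7 had gained and 8 had lost regions, and AFF1, a scaffold of the elongation complex, gained 2 and lost 1.

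Of 10 kinesins and endosomal genes related to KIF16B, 3 had gained and 2 had lost regions. KIF13A, a kinesin-3 motor of recycling endosomes, gained 2 and lost 2, and KIF1A, the synaptic vesicle motor, lost 5. Of 15 double-stranded RNA binding proteins, 2 had gained regions, EIF2AK2 and DICER1 with 1 each, both named after their values were seen; DICER1 also lost 2. In all, 6 of the 15 had lost ones, and ADARB1, an RNA-editing deaminase, lost 3. In every list, all 15 had a called gene end.

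Genes with the most similar pattern were found by the sum of absolute differences in the number of merged regions over the 7 classes of lists. Merged regions join overlapping regions of the 3 lists. Gained and lost regions are among these classes, so likeness in both counts is built into the match. The most similar genes are given as a description. For MLLT3 these were KLHL13 (difference 3, with 3 gained regions) and ARHGAP18 (difference 4, 2 gained), neither of which lost a region. For KIF16B they were ABCC4 and COL5A2, each at a difference of 2, with 2 gained and 1 lost. For STRBP they were OSTN (difference 2, 3 gained) and ACTBL2 (difference 3, 1 gained), each with 1 lost region. For MECOM, with 50 merged regions, they were ANXA8 and IGF1R at a difference of 12, with 4 and 6 gained regions and 11 and 9 lost.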

How the data were processed

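Per the submitters' processing notes, FastQC, Bowtie2, SAMtools, MACS2 and hg38 were used, with no versions or settings. Whether reads were shifted for the transposase and how 3 samples became 1 list is not given in the sources used here. Each deposited list gave per region, from the authors, a score (10 times the −log10 q), a −log10 p, its −log10 q and a fold enrichment, which is a ratio to local background. No −log10 p was under 10.

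Regions sharing 1 bp counted as called in both lists. Gene ends came from RefSeq GRCh38.p14. A region in several gene spans counted for each; a region in none went to the nearest protein-coding gene within 50 kb. Strength deciles rank −log10 p within a list. Exact binomial (Clopper-Pearson) intervals cover counting error only. Depth is unknown. Overlaps and assignment were tested on simulated data in Python 3.11.15 with SciPy 1.17.1. The text names the 4 genes, genes above the threshold, the 2 most similar genes for each, ZHX2, and relatives with at least 2 gained or 3 lost regions; CPT1A, EIF2AK2 and DICER1 were named after their values were seen. Members and gene lists were chosen with earlier results of these data known. Alternatives covered overlap, threshold, list length and assignment. No genome sequence was used, so regions carry no sequence.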

Additional observations from a re-analysis of the deposited data

How the results depend on the processing

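The number of gained regions at the 4 genes, 20, stayed between 14 and 24 under 9 alternatives, and every other result named in this paragraph moved by over 1.5 times under those given. By gene, gained regions numbered 2 at KIF16B and 3 at MLLT3 with a −log10 p of at least 15, in every list or only in the list asked about, and at MECOM 11 with equal length by fold and 4 by nearest gene end. With a −log10 p of at least 15 in every list, 6 of 14 gained regions were also called in normoxia, beside 10 of 20 without it. That count fell together with the number of gained regions. With that threshold only in the list asked about, 6 regions were lost and 6 of 14 gained regions were also called in normoxia. With lists cut to equal length by −log10 p, 1 region was lost, 3 gained regions were also in normoxia, 5 regions of the normoxia list were absent from the hypoxia shCtrl list, and over all regions 14.5% were gained and 14.9% lost. With equal length by fold these were 4, 5 and 9 regions, and 17.1% were gained. By nearest gene end within 50 kb, 4 regions were lost, 15 regions of the normoxia list were absent from the hypoxia shCtrl list, and 2 were absent the other way round. With lists cut to equal length, the shZHX2 list of 62779 regions stayed whole and only the shCtrl lists were cut. Gained regions thus could not fall in number and lost regions could not rise. Fewer regions enter under the other settings, and the cause was not tested further. For overlap of 50%, a gap of 500 bp, a flank of 20 kb and all RefSeq genes competing, no result over the 4 genes moved by that much. No paired analysis was possible because each group had 1 list, and no sample could be left out for the same reason. Depth is unknown, so a region missing from a list may be open and under the threshold.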
